A study of Mus musculus with 6 samples.

Results

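The Myc interval, mouse chromosome 15 from 61.9 to 64.0 Mb on mm10 (GRCm38), holds Myc, the neighbouring noncoding gene Pvt1 and the distal stretch in which the blood enhancers of Myc lie. Every peak of 6 ATAC-seq peak lists that falls in this interval was taken, whatever its height, and overlapping peaks were merged into 112 regions, of 112852 regions on the chromosomes used. The lists came from L-GMP cells, the leukemia stem cells (LSCs) of the murine MLL-AF9 model of acute myeloid leukemia (AML), sorted and cultured with mouse IL3. The labels give the tissue as blood and the genotype as WT, and both groups carry the MLL-AF9 fusion, which the study introduced into blood progenitors by retrovirus to raise leukemia in recipient mice. There were 3 control samples and 3 samples treated with MMF (mycophenolate mofetil), which blocks inosine monophosphate dehydrogenase and so guanine nucleotide synthesis. The labels give 24 h of MMF, the methods of the study 0.5 µM for 24 h, and its figure legend 0.25 µM for 16 h. Nothing in the labels says whether the 3 samples of a group came from separate cultures or animals, so the p-values measure the spread between these samples, which may be technical.

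MYC is a transcription factor that drives growth and proliferation together with its partner MAX, and blood progenitors depend on enhancers far downstream of the gene to express it. In mouse, these elements form a cluster beyond Pvt1 that hematopoietic stem and progenitor cells and MLL-AF9 leukemia use, and that SWI/SNF complexes occupy. Pvt1 lies next to Myc, encodes a long noncoding RNA, and holds enhancers in its introns in several cell types. ATAC-seq reads mark DNA that the Tn5 transposase can enter, and so show which of these elements were open.

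The control lists held 58, 56 and 43 peaks of the interval among 63911, 62090 and 58496 peaks, and the MMF lists 90, 84 and 83 among 86556, 86165 and 80893. The interval thus took 0.0735 to 0.0908% of a control list and 0.0975 to 0.104% of an MMF list. Reads over each summit were recovered as whole numbers and divided by the reads that the genome-wide background of the list puts in 150 bp, which ranged from 0.620 to 0.729 in controls and from 0.676 to 0.909 with MMF; values below are these scaled summit reads. In the interval, summits held between 4 and 119 reads, with a median of 12 to 16.5 per list, so weak peaks rest on few reads. Of 9 genes that mark myeloid progenitors, 6 (Ptprc, Kit, Spi1, Cebpa, Csf2rb and Flt3) had a peak within 1000 bp of a start in all 6 lists, Cd34 in 3 control and 2 MMF lists, Elane in 1 control and 3 MMF lists, and Mpo in none. Of 8 markers of other cell types (Cd79a, Cd3e, Cd4, Hbb-bt, Klf1, Alb, Krt5 and Cdh5), 6 had no such peak in any list, Hbb-bt had 1 in a single control list, and the erythroid gene Klf1 had one in all 6, at mean scaled reads of 118 in controls and 108 with MMF. The part of other cells in the results was not tested.

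Sequences of 121 bases around the summit are shown for the elements on which the results turn, on the plus strand of GRCm38. Capitals mark matches on either strand to C/EBP (TTGCNNAA), MYB (TAACNG), AP-1 (TGANTCA), HOX with MEIS (TGATTNAT) and KLF (CCNCNCCC) motifs. In the element at 407 kb the HOX with MEIS match and the AP-1 match overlap. The first 4 lie in Pvt1 introns and changed most there, the next 2 lie between Pvt1 and the distal cluster, and 3 are the highest elements of the cluster. The element at 267 kb was picked after its values were seen.
Pvt1 intron, 71.2 kb from the Myc start, chr15:62056518-62056638: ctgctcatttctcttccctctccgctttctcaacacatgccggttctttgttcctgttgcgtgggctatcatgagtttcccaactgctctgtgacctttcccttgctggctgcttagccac
Pvt1 intron, 193 kb, chr15:62177852-62177972: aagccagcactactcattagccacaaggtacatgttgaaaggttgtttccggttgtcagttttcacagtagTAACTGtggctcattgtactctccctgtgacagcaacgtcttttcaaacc
Pvt1 intron, 267 kb, chr15:62252199-62252319: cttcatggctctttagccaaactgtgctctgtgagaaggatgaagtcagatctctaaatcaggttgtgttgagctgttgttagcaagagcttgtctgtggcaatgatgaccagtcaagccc
Pvt1 intron, 336 kb, chr15:62321117-62321237: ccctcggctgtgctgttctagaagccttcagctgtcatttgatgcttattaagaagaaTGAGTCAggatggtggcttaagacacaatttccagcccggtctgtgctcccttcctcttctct
Beyond Pvt1, 407 kb, chr15:62392526-62392646: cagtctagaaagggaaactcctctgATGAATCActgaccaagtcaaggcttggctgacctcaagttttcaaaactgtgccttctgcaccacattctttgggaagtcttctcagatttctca
Beyond Pvt1, 886 kb, chr15:62871268-62871388: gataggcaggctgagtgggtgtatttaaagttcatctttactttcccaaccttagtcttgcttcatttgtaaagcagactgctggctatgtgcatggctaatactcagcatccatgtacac
Distal cluster, 1663 kb, chr15:63648461-63648581: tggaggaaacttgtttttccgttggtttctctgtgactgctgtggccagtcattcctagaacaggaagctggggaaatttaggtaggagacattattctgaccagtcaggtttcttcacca
Distal cluster, 1673 kb, chr15:63658093-63658213: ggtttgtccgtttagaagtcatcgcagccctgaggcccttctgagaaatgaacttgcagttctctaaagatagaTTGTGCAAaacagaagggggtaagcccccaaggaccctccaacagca
Distal cluster, 1719.5 kb, chr15:63704843-63704963: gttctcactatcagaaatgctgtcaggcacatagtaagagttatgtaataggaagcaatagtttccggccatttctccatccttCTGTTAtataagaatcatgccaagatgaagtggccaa

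The 2 below are the region at the start of a shorter Fam49b transcript, which had the lowest change of the interval, and the gained region of highest rank, in a Gsdmc2 intron.
Fam49b start, 2013 kb, chr15:63998215-63998335: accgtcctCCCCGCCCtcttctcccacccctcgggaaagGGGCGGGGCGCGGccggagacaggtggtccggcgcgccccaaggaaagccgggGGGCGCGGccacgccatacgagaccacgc
Gsdmc2 intron, 1858 kb, chr15:63842909-63843029: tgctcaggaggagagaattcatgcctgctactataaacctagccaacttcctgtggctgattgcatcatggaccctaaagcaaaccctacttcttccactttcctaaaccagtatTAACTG

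Peaks of the interval were more often added than removed with MMF. Of the 112 regions, 38 had a peak in all 6 lists and are called shared, 14 were gained (a peak in 3 of 3 MMF lists and in no control list), and 0 were lost in the opposite sense. Over all 112852 regions, 6% were gained and 0.182% lost by the same counts. The other 60 regions were uneven, with peaks in more MMF than control lists at 48, in more control lists at 6 and in equal numbers at 6. A peak in MMF lists only was found at 45 regions, and a peak in control lists only at 3. These counts and those of uneven regions were not set beside a share over all regions. The MMF lists are longer, so the counts are not a trait of this interval. With every list cut to its 58496 peaks of lowest p, the length of the shortest, 4 of 81 regions of the interval were gained and 1 lost, where 2.35% of all regions were gained and 1.36% lost.

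**Figure D1:**
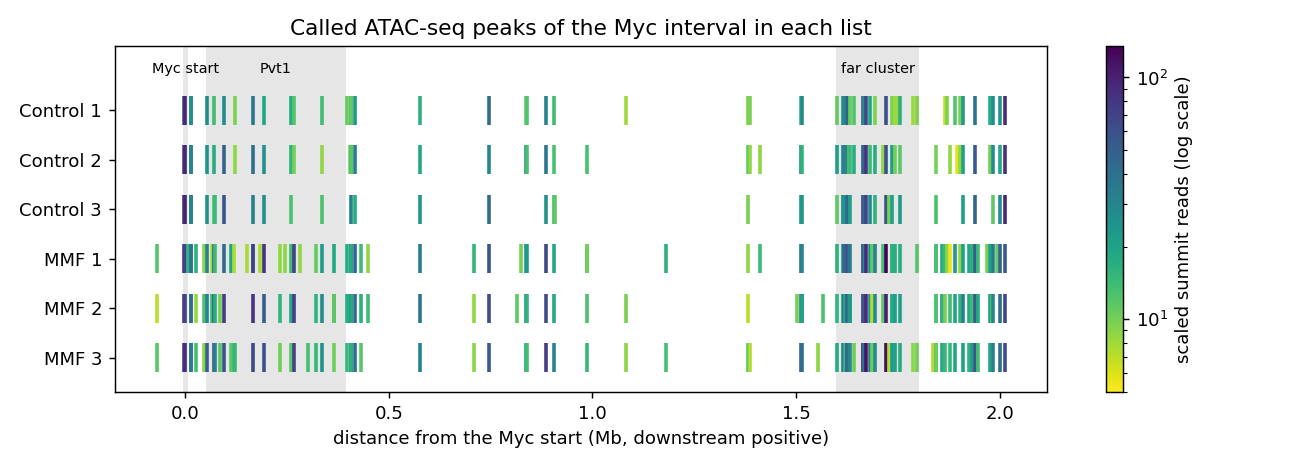
Regions of the Myc interval with a called peak, 1 row per list and 1 mark per region, by distance from the Myc start in Mb. Marks are coloured by scaled summit reads on a log scale. The 3 MMF rows hold 89, 83 and 82 marks against 56, 56 and 42 in the control rows. The Myc start is marked in every row, and the cluster at 1.6 to 1.8 Mb is dense in every row.

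The gained regions were weak. They lay near Myc (3), in Pvt1 (3), beyond Pvt1 (1), in the distal cluster (1) and from Gsdmc2 to Fam49b (6), and their mean scaled reads with MMF ran from 9.5 to 22.5. The highest, chr15:63842646-63843293 in an intron of Gsdmc2, a gasdermin gene, had 19.8, 26.9 and 20.7 in the MMF samples. The next was chr15:63909972-63910213 in Gsdmc4, at 18.7, 18.4 and 16.3. No region lay within 1000 bp of a start of Gsdmc, Gsdmc2, Gsdmc3 or Gsdmc4. In Pvt1, the gained regions at 232, 321 and 365 kb had MMF means of 11.6 ± 3.55, 13.8 ± 2.45 and 15.8 ± 4.74 (SD, n = 3).

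The region at the Myc start, chr15:61984904-61985840, was lower in all MMF samples, while most elements downstream of it were higher. Its summit lies in an exon of Myc, 121 bp past the start of the gene. It had 94.7, 96.9 and 98.4 scaled reads in control and 70.4, 70.8 and 88.7 with MMF. The groups did not overlap, and MMF replicate 3 stood closest to the controls. The means were 96.6 ± 1.86 and 76.6 ± 10.4 (SD, n = 3), a log2 change of -0.34 (SE 0.14) that did not pass in limma across 41182 shared regions (adjusted p = 0.0666). An exact permutation test of the value gave p = 0.1, the smallest that 3 against 3 samples allow. Leaving out MMF replicate 3, the MMF sample nearest the controls, necessarily widened the change, to -0.45 (limma adjusted p = 0.0322). With any other single sample left out, the region was not called.

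The unscaled summits held 69, 67 and 61 reads in control and 64, 50 and 60 with MMF, so each carries a counting error of 12.0 to 14.1%. By fold enrichment over the local background, the region ranked at 67.3 ± 4.69 percentile points of the control lists and 55.6 ± 11.3 of the MMF lists, a difference that an exact permutation test put at p = 0.3. With lists cut to equal length, which removes the difference in the number of peaks, it ranked at 65.8 ± 3.48 and 35.4 ± 18.4, with no overlap between groups (exact permutation p = 0.1). Over all shared regions the median log2 change was 0.165, and relative to that shift Myc stood at -0.51. With reads divided by the median shared region instead of the background, it was called lower (-0.70, adjusted p = 8.45e-05, limma), as were 60.7% of the regions at protein-coding starts under that scaling. By fold enrichment it was -0.24 and not called (adjusted p = 0.469, limma).

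By scaled summit reads, the place of the Myc start among the interval's regions differed between groups. It was the highest region in all 3 control lists and stood at place 7, 8 and 4 in the MMF lists. In every MMF list the distal element at 1719.5 kb came first, the one at 1673 kb second and the one at 1663 kb next. By fold enrichment over the local background, these elements stood above the Myc start in every control list too. The one at 1719.5 kb had 16.1, 14.2 and 13.1 in the control lists, against 9.87, 8.97 and 8.37 at the Myc start. The nearest upstream region, chr15:61983347-61983721, 1.88 kb before the start, had 56.3, 63.6 and 75.8 in control and 83.6, 79.3 and 78.3 with MMF. It did not overlap between groups, but its log2 change of 0.31 (SE 0.15) was not called (limma adjusted p = 0.133) and came to -0.042 when scaled to the median region. Within a sample, where scaling cancels, its ratio to the Myc start went from 0.674 ± 0.0894 in control to 1.06 ± 0.160 with MMF (SD, n = 3; exact permutation p = 0.1). The elements at 13.6 and 14.4 kb downstream changed by -0.18 and 0.37 and were not called (limma adjusted p = 0.642 and 0.227).

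**Figure D2:**
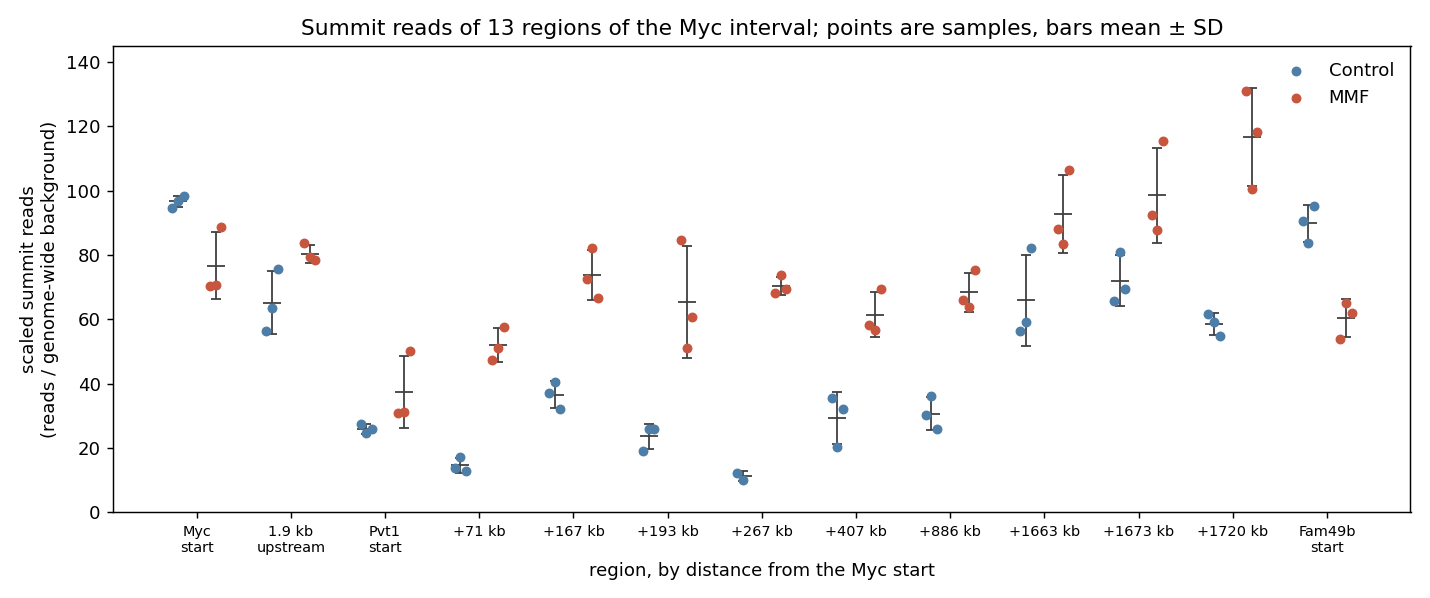
Scaled summit reads of 13 regions in each sample, the Myc start first and the others by distance from it; points are samples and bars the mean and SD of 3 (2 control values at 267 kb, where control replicate 3 had no peak). Most of the 13 were picked for a high MMF mean, a call or a large change, so they do not stand for the interval. MMF samples lie below controls at the Myc start and at the Fam49b start and above them at the other 11. Over all 38 shared regions, the groups overlapped at 12.

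Most changes at the shared regions were positive, though 19 of the 38 did not pass the test. Of the 38, limma called 18 higher and 1 lower, where 21.8% of all shared regions were called higher and 3.09% lower. The interval is mostly distal, and of shared regions over 5 kb from protein-coding starts 29.2% were called higher. Samples did not overlap at 24 regions that were higher and 2 that were lower (29.1% and 7.68% of all shared regions), and they overlapped at 12. The log2 change was positive at 32 and negative at 6, where 64.6% of all shared regions and 76.7% of distal ones were positive. The median was 0.50 against 0.165 over all shared regions and 0.33 over distal ones.

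Divided by the median shared region, 9 were called higher and 2 lower (8.76% and 25.3% of all shared regions), 25 of 38 changes were positive, and over all shared regions the calls turned from 8958 higher and 1271 lower to 3609 higher and 10423 lower. Of the 18 called higher, 11 kept their call whichever sample was left out, 9 under the median scaling, 11 by fold enrichment, and 8 under all of these. Those 8 are the Pvt1 elements at 71.2, 167, 193 and 336 kb, those at 407 and 886 kb, and the cluster elements at 1694 and 1719.5 kb. How many of all shared regions kept their call in the same way is not given, so no background stands beside the 8. By fold enrichment alone, 12 of the 38 and 5501 of all 41182 were called higher. On normal scores of ranks among shared regions, limma called 0 higher (10 at an unadjusted p under 0.05) and 1 lower, and over all shared regions that test called 1.44% higher and 0.425% lower. On normal scores of ranks in each list by fold enrichment, limma called 5 higher (15 at an unadjusted p under 0.05) and 1 lower, where 5.83% of all shared regions were called higher and 0.185% lower. Those 5 are the elements at 71.2, 167, 336, 577 and 886 kb. The elements at 193, 407, 1694 and 1719.5 kb, which are among the 8 above, were not called by that test. Without 1 sample that test called 0 to 4 of the 38 higher, and 0 of all 41182 whichever MMF sample was left out. The counts at an unadjusted p were not set beside a share over all shared regions.

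**Figure D3:**
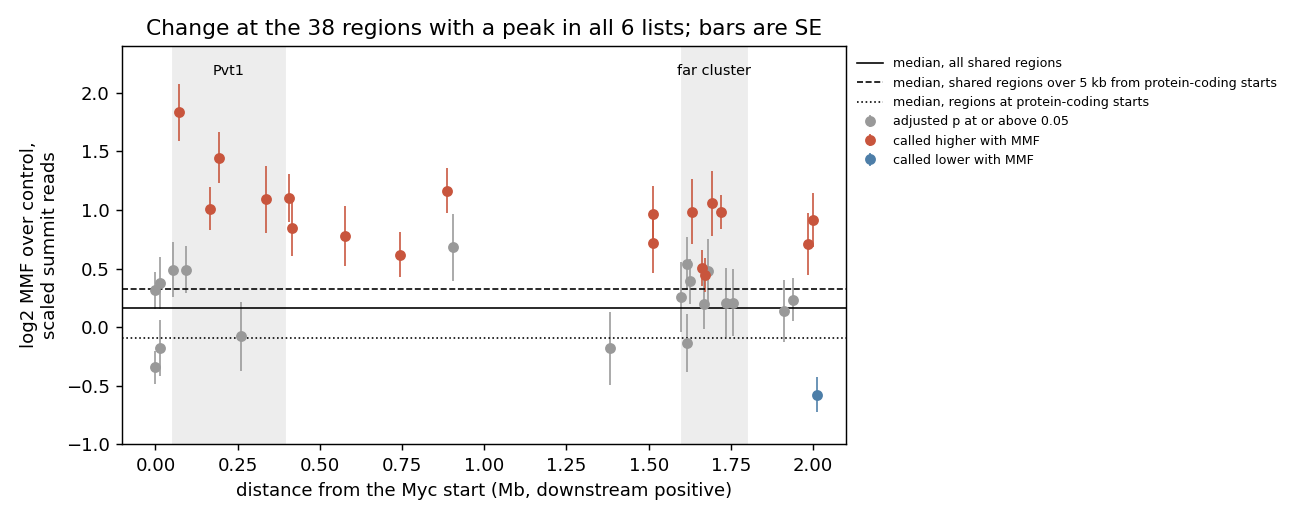
The log2 change of MMF over control in scaled summit reads at the 38 shared regions, with SE, by distance from the Myc start in Mb; lines are medians over all shared regions (0.165), distal regions (0.33) and regions at protein-coding starts (-0.10). The 18 regions called higher spread from Pvt1 to Fam49b, and the 1 called lower is the Fam49b start.

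Pvt1 held the largest changes. Its start, chr15:62037669-62038321, is the promoter of the noncoding RNA and had 27.4, 24.6 and 25.8 in control and 30.8, 31.2 and 50.3 with MMF. The groups did not overlap, with MMF replicate 3 well above the other two, and the log2 change of 0.49 (SE 0.24) was not called (limma adjusted p = 0.123). Of 6 shared regions in the body of the gene, all in introns, 4 were called higher, beside 29.2% of all distal shared regions. Their summed scaled reads, with the other 2, were 146 ± 14.9 in control and 291 ± 13.0 with MMF (SD, n = 3), 1.99-fold higher.

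The element chr15:62056380-62056820, 71.2 kb from the Myc start and in a Pvt1 intron, rose from 13.7, 17.4 and 12.9 to 47.3, 51.0 and 57.6. The MMF samples lay far above the controls, and the log2 change was 1.83 (SE 0.24, limma adjusted p = 1.76e-08), the largest of the 38. At 193 kb, chr15:62177641-62178210 rose from 19.2, 26.0 and 25.8 to 84.7, 51.0 and 60.6, with MMF replicate 1 highest (log2 1.45, SE 0.21, limma adjusted p = 2.00e-07). At 167 kb, chr15:62152050-62152739 rose from 37.0, 40.5 and 32.2 to 72.6, 82.2 and 66.5 (log2 1.01, limma adjusted p = 1.05e-05), and at 336 kb a weaker element rose from 13.7, 8.7 and 12.9 to 22.0, 26.9 and 25.1 (log2 1.09, limma adjusted p = 0.00253). The Pvt1 regions at 94.2 and 260.1 kb changed by 0.49 and -0.08 and were not called (limma adjusted p = 0.0635 and 0.882). The first had 27.4, 47.7 and 56.4 in control and was called without control replicate 3 or MMF replicate 1 (0.70 in both, limma adjusted p = 0.0138 and 0.0151).

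One Pvt1 element outside the shared set, named after its values were seen, had the widest gap between groups. At chr15:62252062-62252579, 267 kb from the Myc start, control replicates 1 and 2 had 12.3 and 10.1 and control replicate 3 had no peak, while the MMF samples had 68.2, 73.7 and 69.5. Its rank by fold enrichment was at 39.4 and 21.2 percentile points in those controls and at 98.8, 98.0 and 98.5 with MMF. In a limma fit over regions with a peak in at least 2 lists of each group, in which the missing control was left out, its log2 change was 2.65 (SE 0.24). It was picked from these same data for its gap, so its change is a description and no p-value is given.

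Between Pvt1 and 1.6 Mb, 7 of 10 shared regions were called higher, beside 29.2% of all distal shared regions. The sum of the 10 went from 227 ± 1.78 to 393 ± 27.3 (SD, n = 3), 1.73-fold. The element at 886 kb, in intergenic DNA, rose from 30.2, 36.2 and 25.8 to 66.0, 63.7 and 75.4 (log2 1.16, SE 0.19, limma adjusted p = 2.46e-06). The element at 407 kb, just past the end of Pvt1, rose from 35.7, 20.2 and 32.2 to 58.3, 56.7 and 69.5 (log2 1.10, SE 0.21, limma adjusted p = 2.73e-05). The other 5 called, at 416, 577, 745, 1512 and 1513 kb, changed by 0.62 to 0.97. The call at 577 kb was lost in limma without control replicate 1 (0.65, adjusted p = 0.0742) or MMF replicate 2 (0.71, adjusted p = 0.0776). The call at 745 kb was lost without control replicate 2 (0.43, adjusted p = 0.121) or MMF replicate 2 (0.55, adjusted p = 0.0709). The call at 1513 kb was lost without control replicate 2 (0.50, adjusted p = 0.170), MMF replicate 2 (0.71, adjusted p = 0.0719) or MMF replicate 3 (0.60, adjusted p = 0.138). The regions at 905, 1599.5 and 1381 kb changed by 0.68, 0.25 and -0.18 and were not called.

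The distal cluster, 1.6 to 1.8 Mb downstream of the Myc start, had 25 regions, of which 12 were shared, 1 gained and none lost. A 200-kb stretch held a median of 1 shared region genome-wide, and 5.76% of 13622 such stretches held 12 or more. By annotation, 10 of the 12 lie in introns of the long noncoding RNA gene Gm41335 (63176838 to 63718289, minus strand), 1 in an exon of 4930449C09Rik and 1 at the start of Gm41336. The sums of the 12 were 375, 419 and 461 in control and 613, 554 and 627 with MMF. The groups did not overlap, and the mean was 1.43-fold higher with MMF. Limma called 5 of the 12 higher and none lower, and 11 of 12 log2 changes were positive, from -0.14 to 1.06. Of all shared regions over 5 kb from protein-coding starts, 29.2% were called higher and 76.7% were positive. On normal scores of ranks in each list by fold enrichment, limma called none of the cluster regions. The lowest adjusted p there was 0.0642, at 1694 kb.

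The element chr15:63704402-63705372, 1719.5 kb from the start, rose from 61.7, 59.3 and 54.8 to 130.9, 100.6 and 118.3. The lowest MMF value was well above the highest control value, and the log2 change was 0.99 (SE 0.15, limma adjusted p = 1.94e-07). Among distal shared regions it moved from percentile 89.4 of the control means to 98.0 of the MMF means. Its ratio to the Myc start, given as a description since it was picked for its height, went from 0.652, 0.612 and 0.557 in control to 1.86, 1.42 and 1.33 with MMF.

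The next highest elements changed less. At chr15:63657693-63658756 values were 65.9, 81.0 and 69.3 in control and 92.4, 87.8 and 115 with MMF (log2 0.45, SE 0.15, limma adjusted p = 0.0165). At chr15:63648004-63648780 they were 56.3, 59.3 and 82.2 against 88.0, 83.6 and 106 (log2 0.50, SE 0.15, limma adjusted p = 0.00969). At neither did the groups overlap, but both calls were lost in limma without MMF replicate 3 (0.33, adjusted p = 0.162, and 0.40, adjusted p = 0.0926), without control replicate 1 (0.38, adjusted p = 0.0763, and 0.40, adjusted p = 0.0754) and under the median scaling (0.09 and 0.15). The second was also lost without control replicate 2 (0.44, adjusted p = 0.0512). The weaker elements at 1632 and 1694 kb rose from means of 15.5 and 14.4 to 30.0 and 29.0 (log2 0.99 and 1.06, limma adjusted p = 0.00473 and 0.00255), the first losing its call without MMF replicate 1 (adjusted p = 0.0558).

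The other 7 cluster regions were not called. Those at 1618 and 1626 kb did not overlap between groups, with log2 changes of 0.54 and 0.39 (limma adjusted p = 0.0672 and 0.127), and those at 1616, 1667, 1680.3, 1736 and 1755 kb overlapped, with changes of -0.14 to 0.48. The sum over the cluster, as a log2 ratio, was 0.51 with background scaling, 0.16 when scaled to the median region and 0.29 by fold enrichment.

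**Figure D4:**
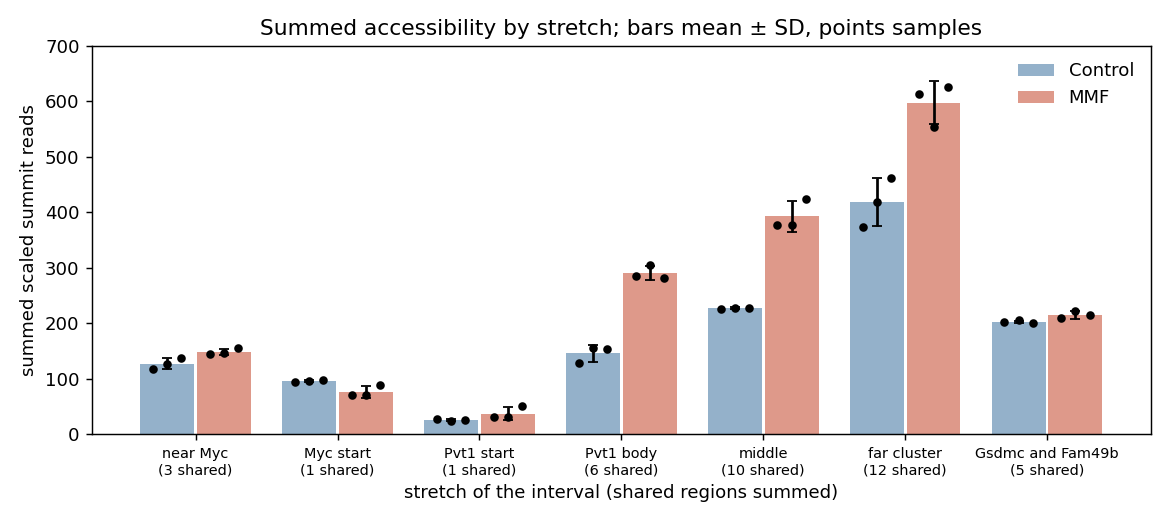
Scaled summit reads summed over the shared regions of each stretch of the interval; bars are means, error bars SD and points the 3 samples of a group. Control and MMF sums are furthest apart in ratio in the Pvt1 body (1.99-fold). The Myc start, a stretch of 1 region, is the only one where the MMF mean is lower (0.793-fold). The Fam49b start also fell (log2 -0.58), but here it is summed with the other shared regions of its stretch.

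At the far end of the interval, Fam49b, a regulator of RAC1 signalling, had both directions. The region at the start of its shorter transcript, chr15:63997583-63998635, fell from 90.6, 83.9 and 95.1 to 53.9, 65.2 and 62.1, with no overlap (log2 -0.58, SE 0.15, limma adjusted p = 0.00266). It was the 1 region of the 38 called lower, kept that call whichever sample was left out, under the median scaling and by fold enrichment, and like the Myc start lies at the start of a protein-coding transcript. The intronic Fam49b elements at 1984 and 2000.5 kb rose (log2 0.71 and 0.91, limma adjusted p = 0.0380 and 0.00169). The call at 1984 kb was lost in limma without control replicate 3 (0.30, adjusted p = 0.447), and also without MMF replicate 1, 2 or 3 (adjusted p = 0.124, 0.0564 and 0.0900). The Gsdmc4 region at 1910.4 kb and the region at 1939 kb overlapped between groups, with log2 changes of 0.14 and 0.23. Over the 5 shared regions of Gsdmc and Fam49b the summed reads were 203 ± 2.16 and 215 ± 6.76 (SD, n = 3).

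The protein-coding starts set the background for Myc. Of 10469 shared regions at such starts, limma called 6.57% lower and 3.58% higher, and their median log2 change was -0.10, with 32.9% positive. The promoters of the MYC and MAX network, whose members pair with MAX or MLX on DNA, were shared for 13 of 13 genes (Myc, Mycn, Mycl, Max, Mxd1, Mxd3, Mxd4, Mxi1, Mnt, Mga, Mlx, Mlxip and Mlxipl). Limma called 0 of them in either direction, with 3 at an unadjusted p under 0.05, and the change was negative for 12 and positive for Mycl (0.09). That unadjusted count was not set beside a share over all protein-coding starts. The change at Myc was the lowest of the 13, followed by Mga at -0.26, a MAX partner that represses (145.9 ± 6.71 to 122 ± 4.73; adjusted p = 0.0986), then Mxd4 and Mlxipl at -0.23. Max itself had 153 ± 15.6 and 142 ± 4.93 (-0.10, adjusted p = 0.576, limma). Scaled to the median region, 11 of the 13 were called, all lower, beside 60.7% of all regions at protein-coding starts called lower and 1.13% higher. Mxd4 was called without MMF replicate 2, and Myc without MMF replicate 3.

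The protein-coding promoters whose profile over the 6 samples was most like that of Myc, by root mean square difference of centred log2 values among 10468 promoters, were those of Dynll1 (0.0317), Cybc1 (0.0337), Psmd1 (0.0409), Srsf7 with Ttc39d (0.0439) and Arv1 with Ttc13 (0.0446). Dynll1, a dynein light chain, had 139, 142 and 137 in control and 97.9, 103 and 127 with MMF. They were chosen for that likeness, so their values are a description.

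Short motifs are given as a description of the interval's sequence, on either strand. In 200 bp around the summit, each share in the interval is set beside that over all regions and then that over regions more than 5 kb from protein-coding starts. MYB matches were found in 31 of 112 regions (27.7%, against 20.2% and 21.6%), C/EBP in 23 (20.5%, against 14.97% and 16.4%), NF-Y (CCAAT) in 37 (33.0%, against 23.5% and 22.8%) and HOX with MEIS in 7 (6.25%, against 3.17% and 3.62%). PU.1 (GAGGAAGT) matched 11 (9.82%, against 8.28% and 9.16%), and the GATA motif, with letters AGATAA, 10 (8.93%, against 6.92% and 7.73%). AP-1 matched 19 (17.0%), between the shares of all and distal regions (16.1% and 18.1%). Lower than in both were KLF (21 regions, 18.8%, against 24.98% and 19.4%) and RUNX (TGTGGTT, 8.04%, against 10.7% and 12.1%). So were the E-box CACGTG (1.79%, against 4.50% and 3.97%), the CTCF consensus (3.57%, against 5.95% and 6.54%) and ELK1 (CCGGAAGT, in 0 of 112, against 1.30% and 0.555%). Of the 18 regions called higher, NF-Y matched 8, MYB 6, C/EBP and HOX with MEIS 4 each and AP-1 3. PU.1, RUNX and KLF matched 2 each and GATA 1, and no share over all called regions was computed. Among the 12 shared cluster regions, MYB and KLF matched 4 each, NF-Y and AP-1 3 each, C/EBP and PU.1 2 each, RUNX and CTCF 1 each, and GATA, HOX with MEIS, the E-box and ELK1 none. The GC content was 45.5% at the median of the interval, 49.5% over all regions, 59% at the Myc start and 74% at the Fam49b start. These matches describe letters only, and the Pvt1 elements at 71.2 and 267 kb matched none of the 12 motifs.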

How the data were processed

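Open chromatin was profiled in 3 samples per group. Per the labels and their processing notes, the authors used FastQC, Trim Galore, Bowtie2, MACS2 and mm10, with versions not given in the sources used here, and called peaks for each sample alone. Each deposited narrowPeak list gives a fold enrichment (the ratio of summit reads to local background), −log10 p and q values, and summit positions. The authors' deposited score column was not used. Total reads per sample are not part of the lists. Counting errors cover counting only.

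Reads and background were solved from fold enrichment, (reads + 1) / (background + 1), and the Poisson p, and were whole within a relative 0.001 for 100% of peaks. The commonest background of a list was taken as genome-wide. Regions were merged peaks, with presence at 1 bp of overlap. Log2 scaled summit reads of the 41182 regions shared by the 6 lists went into limma 3.58.1 (R 4.3.3; lmFit, eBayes with trend, no block, no pseudocount), with Benjamini-Hochberg adjustment over all of them at 0.05. A change is thus seen only where peaks were called. Exact permutation tests were two-sided. The method was tested on simulated data. Protein-coding starts and genes came from GENCODE M21 (1000 bp either side), and sequence from RefSeq's GRCm38 with pysam 0.24.0; scripts ran in Python 3.11.15.

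Named regions were the starts of Myc and Pvt1, shared regions of the cluster, called regions, at most 10 gained or lost regions by rank, and the 10 highest other shared regions. The members, lists and tests were chosen with earlier results of these data known. Alternatives covered scaling, fold enrichment, ranks, list length, presence rules, each sample left out, the block and the motif window. A further marker gene is not reported here.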

Additional observations from a re-analysis of the deposited data

How the results depend on the processing

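The limits are those of called peaks with 3 samples a group. Dividing reads by the median shared region called the Myc start lower (-0.70), left 9 regions called higher and 2 lower, 10 higher without overlap, 11 MYC network promoters called, and a log2 ratio of the cluster sums of 0.16, against 0.29 by fold enrichment, which left 1 region lower without overlap. Ranks by fold enrichment, as normal scores, called 5 higher (0 with the replicate block and 0 to 4 without 1 sample), and ranks among shared regions, added after the data were seen, 0. Gained regions numbered 4 and lost regions 1 in lists of equal length (2.35% and 1.36% of all regions). At 2 of 3 lists, 23 of 112 were gained, where 15390 of all 112852 were. In 500 bp windows 22 of 194 were gained, and windows were cut in the interval only, so no background stands beside them. Without 1 sample, the change at the Myc start ran from -0.29 to -0.45, regions called lower from 1 to 2, lower without overlap from 2 to 5, MYC network promoters called from 0 to 1, each with its upper value without MMF replicate 3 (the last also without MMF replicate 2). The cause was not tested. In these alternatives, the counts without overlap were not set beside a share over all shared regions.

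Regions that were not called, and 1 that was (1513 kb), turned sign. By the median scaling these were 1.88 kb upstream (-0.042), 1599.5 kb (-0.10), 1667 kb (-0.15), 1736 kb (-0.15), 1755 kb (-0.15), 1910.4 kb (-0.22) and 1939 kb (-0.12). By fold enrichment they were 260.1 kb (0.0059), 1626 kb (-0.068), 1667 kb (-0.093) and 1939 kb (-0.013). By the rank among shared regions they were 1513 kb (-0.033), 1626 kb (-0.43), 1667 kb (-0.59), 1736 kb (-0.12), 1755 kb (-0.0048), 1910.4 kb (-0.10) and 1939 kb (-0.40). Without 1 sample, 260.1 kb ran from -0.25 to 0.074, 1667 kb from -0.060 to 0.35, 1736 kb from -0.18 to 0.41, 1755 kb from -0.037 to 0.44 and 1910.4 kb from -0.079 to 0.25.

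With the replicate number as a block, the Myc start was at -0.34 (limma adjusted p = 0.0643), 19 regions were called higher (that at 94.2 kb was added, adjusted p = 0.0439) and 1 lower, and 0 MYC network promoters were called. Of all 41182 shared regions, that fit called 8889 higher and 1289 lower. Deviations of same-numbered samples had correlations of -0.0013, 0.0039 and -0.0026. The median summit held 14 to 19 reads per list, and counting error of that size can hide a shared deviation. Whether the numbers pair the samples thus cannot be told from these values.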
